A study of Homo sapiens with 17 samples.

Results

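All 37 genes annotated on chromosome M, the mitochondrial genome (GENCODE 29, GRCh38), were taken as a set, of 57638 annotated genes in all. The set holds 13 mRNAs, 2 rRNAs and 22 tRNAs, and no measured value entered the choice. Their RNA was measured in 17 libraries with 15 plasmid labels, all from K562 cells, which derive from chronic myeloid leukaemia in blast crisis and show erythroid genes. Per the labels, CRISPR plasmids designed for gene activation were electroporated into every culture, controls included. An antisense oligonucleotide was added later, and cells were taken on day 6. RNA was primed with oligo-dT carrying molecular identifiers of 12 bp and read as 3′ tags. Uptake of such oligonucleotides with GOLGA8, a golgin family of the Golgi apparatus, is the subject named in the title.

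Neg, GFP and RFP, with no human gene in the label, formed the reference arm. Libraries 23-GOLGA8N, GOLGA8N 1 and GOLGA8N 2 formed the GOLGA8N arm, and 22-LAPTM4B, LAPTM4B 1 and LAPTM4B 2 the LAPTM4B arm. The other libraries, 1 per label, were ADORA2A, COL6A6, TRPC5OS, TTR, UBE2V1, E7, 20-ARSF and 21-CTPS2. The 4 labels with a number before the gene (20-, 21-, 22- and 23-) are called prefixed here and the other 13 unprefixed. The labels explain neither these numbers nor the endings 1 and 2, Neg or E7, and name neither the oligonucleotide nor the guides. Nothing in them states that libraries of an arm are separate cultures. The p-values therefore measure only how these libraries spread, which may be technical.

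Mitochondrial DNA is a small circle that is copied into long RNAs from both strands. In most places tRNAs lie between the other genes, and cutting them out at both ends frees the mRNAs and rRNAs. The mRNAs encode subunits of respiratory complex I (the ND genes), complex III (MT-CYB), complex IV (the CO genes) and ATP synthase (the ATP genes). The rRNAs and tRNAs serve the mitochondrial ribosome. Most mitochondrial mRNAs receive short poly(A) tails, which in several of them also complete the stop codon.

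The last 30 annotated bases of 7 mRNAs are shown, with the last codon, whole or partial, in capitals. Whether the RNAs end at these bases, and so whether 3′ tags come from them, was not tested. All sequences are from the GENCODE 29 transcripts (GRCh38) and run 5′ to 3′ on the strand of the gene.
MT-ND1, chrM:3307-4262, plus strand: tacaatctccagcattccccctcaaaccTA
MT-ND2, chrM:4470-5511, plus strand: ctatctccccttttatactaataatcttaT
MT-ND3, chrM:10059-10404, plus strand: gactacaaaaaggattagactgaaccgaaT
MT-CO1, chrM:5904-7445, plus strand: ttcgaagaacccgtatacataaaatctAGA
MT-ATP6, chrM:8527-9207, plus strand: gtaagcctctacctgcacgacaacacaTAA
MT-ND5, chrM:12337-14148, plus strand: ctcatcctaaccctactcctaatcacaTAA
MT-ND6, chrM:14149-14673, minus strand: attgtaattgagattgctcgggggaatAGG

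As annotated, 7 of the 13 mRNAs end on a whole codon, 1 (MT-ND1) carries 2 bases after its last whole codon and 5 carry 1 base, as in MT-ND2 and MT-ND3. MT-CO1 and MT-ND6 end on AGA and AGG in place of a standard stop codon.

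The tRNAs on which the results turn are printed whole, with the anticodon in capitals. A script took the anticodon as the occurrence whose flanks paired best as a 5-base stem, and the flanks paired at 4 or 5 of 5 positions. The first 3 tRNAs flank the rRNAs.
MT-TF (phenylalanine), chrM:577-647, plus strand: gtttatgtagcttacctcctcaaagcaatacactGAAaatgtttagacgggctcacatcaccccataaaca
MT-TV (valine), chrM:1602-1670, plus strand: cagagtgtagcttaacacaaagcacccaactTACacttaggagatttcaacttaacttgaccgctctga
MT-TL1 (leucine), chrM:3230-3304, plus strand: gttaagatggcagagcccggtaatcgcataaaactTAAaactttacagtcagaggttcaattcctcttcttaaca
MT-TD (aspartic acid), chrM:7518-7585, plus strand: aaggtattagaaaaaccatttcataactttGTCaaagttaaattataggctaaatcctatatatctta
MT-TQ (glutamine), chrM:4329-4400, minus strand: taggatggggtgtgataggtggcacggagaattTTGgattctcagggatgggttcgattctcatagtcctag
MT-TA (alanine), chrM:5587-5655, minus strand: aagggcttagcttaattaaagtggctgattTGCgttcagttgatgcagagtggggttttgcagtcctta
MT-TN (asparagine), chrM:5657-5729, minus strand: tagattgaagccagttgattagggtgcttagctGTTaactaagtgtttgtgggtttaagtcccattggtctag

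MT-TF, MT-RNR1 (648 to 1601), MT-TV, MT-RNR2 (1671 to 3229) and MT-TL1 follow each other with gaps of 0 bases, so each rRNA has a tRNA at both ends.

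Reads in genes numbered 549962 in GFP and 2174638 (23-GOLGA8N) to 4090195 (20-ARSF) in the other 16 libraries. GFP therefore stood apart in depth: 3 reads were 5.46 CPM (reads per 1000000 gene reads) there and at most 1.38 CPM elsewhere. The fewest reads of any mRNA or rRNA in any library were 640, for MT-ND4L. Among 16 erythroid markers of K562, the fetal and embryonic globins HBG2 (2236 to 4777 CPM) and HBZ (1175 to 3418 CPM) and the erythroid regulator GATA1 (112 to 185 CPM) were present throughout. Summed fibroblast markers reached at most 64.3 CPM, T cell markers 122.6 CPM and B cell markers 9.47 CPM, while 6 epithelial markers, KRT8, KRT18 and KRT19 among them, summed to 849 to 2022 CPM. GOLGA8N had 0.106 ± 0.184 CPM in its own arm (SD, n = 3) and 0.0234 ± 0.0683 elsewhere (SD, n = 14), from 0.692 and 1.32 estimated reads in all, and LAPTM4B was at 189 ± 29.7 CPM in its own arm (SD, n = 3) and 227 ± 43.3 elsewhere (SD, n = 14). Neither gene was higher in its own arm beyond the spread, so the arms are named by label alone. In bulk RNA, fewer cells of a type and less RNA per cell cannot be told apart.

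Mitochondrially encoded RNA took 15.4 ± 1.22% of gene reads (SD, n = 17), from 13.4% in 21-CTPS2 to 17.5% in UBE2V1. The 13 mRNAs held 73.3% of these reads, the 2 rRNAs 15.0% and the 22 tRNAs 11.7%. The mRNAs took 11.4 ± 1.21% of gene reads, the rRNAs 2.29 ± 0.273% and the tRNAs 1.79 ± 0.393% (SD, n = 17). The tRNA share thus varied most for its size, from 1.27% in LAPTM4B 2 to 2.58% in 23-GOLGA8N. Because RNA was primed with oligo-dT, tRNA counts here and below need not follow the level of mature tRNAs, which was not tested.

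**Figure D1:**
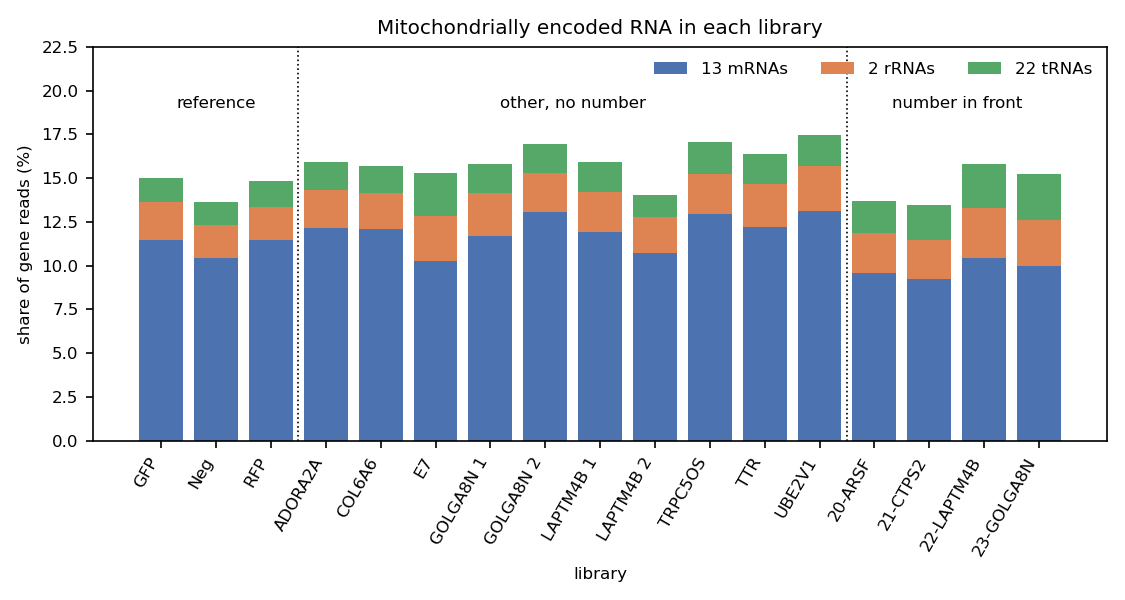
Share of gene reads (%, vertical axis) in the 13 mRNAs, 2 rRNAs and 22 tRNAs, stacked, in each of the 17 libraries. The mRNA segment is lowest in 21-CTPS2 (9.26%) and the tRNA segment is largest in 23-GOLGA8N, 22-LAPTM4B and E7 (2.58%, 2.51% and 2.43%).

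Levels were compared between genes per kilobase of transcript, although counts of 3′ tags need not grow with length. On this scale MT-ND3, a small complex I subunit, stood first among the mRNAs at 42343 ± 6109 CPM per kilobase (SD, n = 17). MT-CO2, a catalytic subunit of complex IV, followed at 26721 ± 3292. MT-ATP6, the membrane subunit of ATP synthase beside the rotor, was at 22574 ± 4130, and MT-CO3 at 20845 ± 2230. The ranges of mean ± SD overlapped between MT-CO2 and MT-ATP6 and between MT-ATP6 and MT-CO3. These ranges span libraries and do not compare the genes within a library. MT-CO2 and MT-ATP6 have nearly equal lengths (684 and 681 bases). In CPM, MT-CO2 was above MT-ATP6 in each library but ADORA2A (15950 against 16018).

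MT-ND2 (10689 ± 2352 CPM per kilobase) and MT-ND4 (10147 ± 1310) overlapped in the same way. MT-CYB, MT-ND1 and MT-ND4L formed a close group at 6160 ± 723, 5515 ± 851 and 5303 ± 877. MT-ND6, the mRNA of the minus strand, was at 3923 ± 594, MT-ATP8 at 3503 ± 2437 and MT-CO1 at 2890 ± 284. The ranges of MT-ND4L and MT-ND6 overlapped. That of MT-ATP8 overlapped those of all mRNAs from MT-CYB down to MT-ND5, so these ranges do not set its place in the order. By median MT-ATP8 (2722) lay below MT-CO1 (2877). MT-ND5, the longest mRNA, stood last at 1435 ± 271, below the range of MT-CO1.

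Of the rRNAs, MT-RNR2, which forms the large ribosomal subunit, was at 11821 ± 1621 CPM per kilobase and MT-RNR1, of the small subunit, at 4700 ± 521 (SD, n = 17). MT-RNR2 held 80.4% of the rRNA reads. Among the tRNAs, MT-TS1 (serine) held 23.4% of tRNA reads, MT-TF 14.8%, MT-TA 12.5%, MT-TL1 11.8% and MT-TV 11.1%, and the other 17 held smaller shares, down to 0.0547% for MT-TG (glycine). MT-TS1 and MT-CO1 abut on opposite strands, and the strand setting is not given. Reads cannot be assigned between them with certainty, so the ranks of both are uncertain. The same holds for MT-ND6 and MT-ND5. The 8 tRNAs of the minus strand supplied 46.3% (22-LAPTM4B) to 67.3% (GOLGA8N 2) of tRNA reads.

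The coefficient of variation of CPM over the 17 libraries had a median of 15.1% among the mRNAs, from 9.82% for MT-CO1 to 69.6% for MT-ATP8. Among the tRNAs its median was 29.2%, from 13.9% for MT-TA to 80.5% for MT-TD. The 2 rRNAs were at 11.1% and 13.7%.

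**Figure D2:**
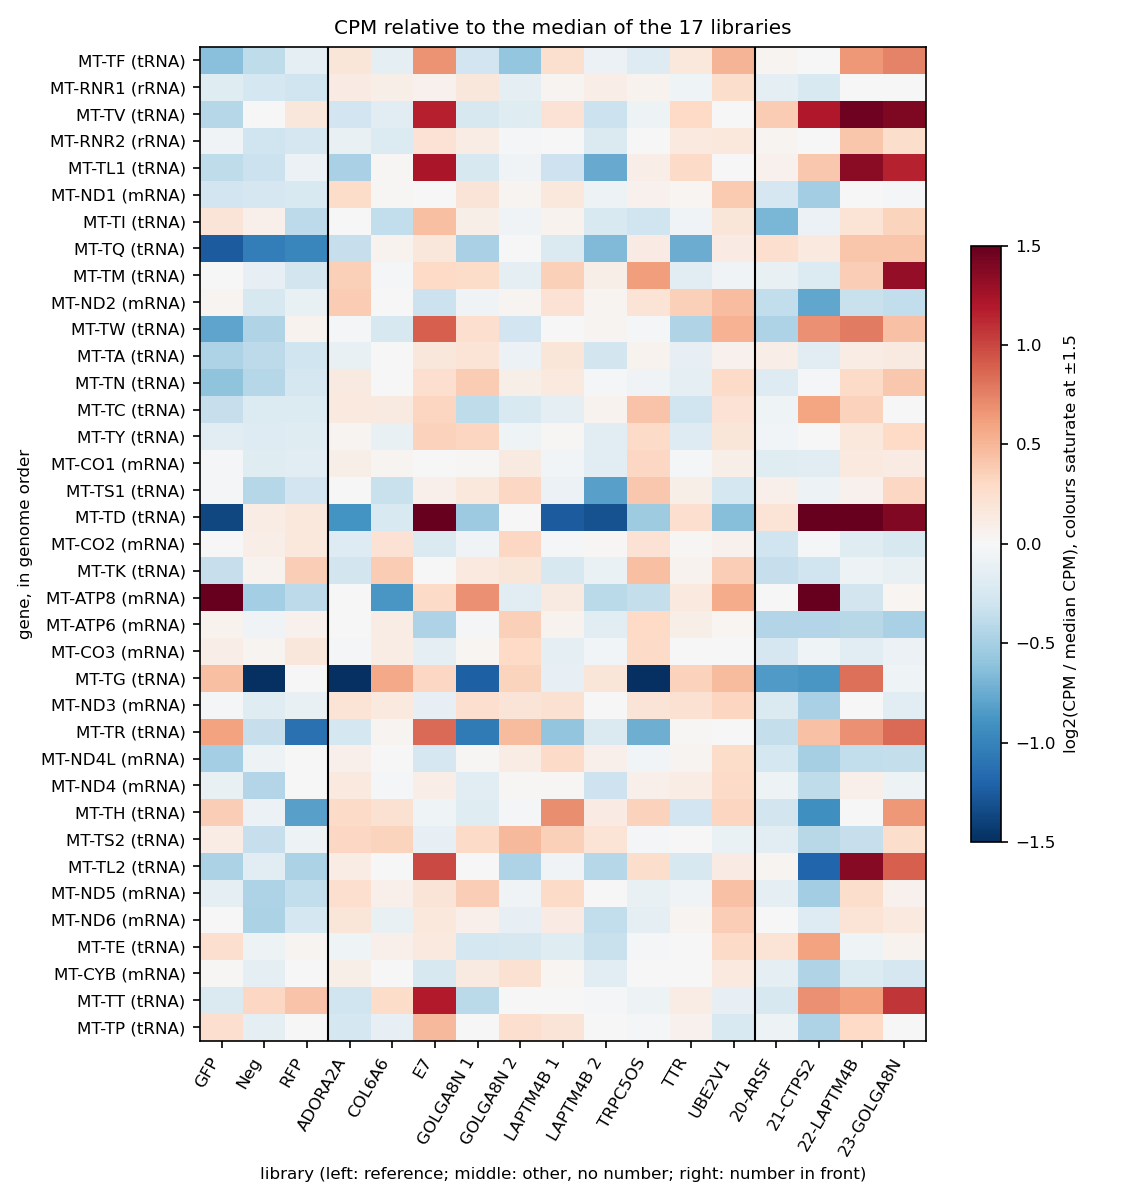
Heat map of log2(CPM / median CPM of the 17 libraries) for the 37 genes in genome order (rows) in each library (columns), with lines between reference, other unprefixed and prefixed libraries; colours saturate at the ends of the scale. MT-TV, MT-TL1 and MT-TD are high in E7, 22-LAPTM4B and 23-GOLGA8N, and MT-ATP8 is high in GFP and 21-CTPS2.

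The prefixed libraries were compared with the unprefixed ones because the labels form these 2 kinds, whose meaning is not given. MT-ATP6 was lower in the prefixed libraries and was the 1 member of 37 called. Its level was 11481 CPM in 23-GOLGA8N, 11785 in 21-CTPS2, 11823 in 20-ARSF and 11966 in 22-LAPTM4B. In the 13 unprefixed libraries it ran from 11649 CPM in E7, with a median of 16615, to 20555 in GOLGA8N 2. E7 was the 1 unprefixed library within the prefixed range, and the next lowest, LAPTM4B 2, was at 14295 CPM. MT-ATP6 fell by 0.47 ± 0.10 in log2 units (SE, 4 against 13 libraries; edgeR adjusted p = 0.0219). The call was lost in edgeR without any 1 of the 4 prefixed libraries (edgeR adjusted p = 0.0573 to 0.13, all with log2 values of -0.50 to -0.45) with limma-voom (adjusted p = 0.123), and without the reference arm (log2 -0.51; edgeR adjusted p = 0.0626).

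The test called 35 of 12319 genes, 0.284%, and 1 of 37 members. At an unadjusted p under 0.05 there were 15 members and 9.36% of all genes. Of the 13 mRNAs, 11 had lower values in the prefixed libraries, with a median log2 of -0.21, against -0.02 over all genes tested. Of the 22 tRNAs, 18 had higher values, with a median of 0.26. MT-TI (isoleucine), at 0.01, turned to -0.01 with total count scaling and to -0.06 with limma-voom, and no other member changed sign between the scalings and tools.

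MT-ND2, a complex I subunit, was not called at log2 -0.54 ± 0.16 (SE; edgeR adjusted p = 0.223). Its level was 6565 to 8918 CPM in the prefixed libraries, and 9004 (E7) to 15559 (UBE2V1) with a median of 11550 in the others. MT-ND4L, a small complex I subunit, was not called either, at -0.37 ± 0.12 (SE; edgeR adjusted p = 0.245). DESeq2 called MT-ATP6, MT-ND2, MT-ND4L and MT-TV, and limma-voom called 0 members. Over all genes they called 124 of 26712, 0.464%, and 52 of 12319, 0.422%. As shares of gene reads, the mRNAs together were at 9.26% to 10.4% in the prefixed libraries and at 10.3% (E7) to 13.1% in the unprefixed ones.

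Like most tRNAs, those beside the rRNAs went the other way in value. MT-TD, which flanks no rRNA, had the largest log2 difference of the 37, at 1.35 ± 0.47 (SE). MT-TQ, also away from the rRNAs, was at 0.64 ± 0.27, above MT-TF at 0.41 ± 0.25 (SE). MT-TV was at 4031 CPM in 22-LAPTM4B, 3900 in 23-GOLGA8N, 3383 in 21-CTPS2 and 1922 in 20-ARSF, against 1093 to 3293 CPM with a median of 1392 in the unprefixed libraries. E7 alone lay above 20-ARSF there, since the next unprefixed library, TTR, was at 1815 CPM. The log2 difference was 1.11 ± 0.25 (SE, 4 against 13 libraries), which did not pass (edgeR adjusted p = 0.0957).

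MT-TL1 was at 4493 CPM in 22-LAPTM4B, 3915 in 23-GOLGA8N, 2325 in 21-CTPS2 and 1836 in 20-ARSF, against 1046 to 4121 (E7) CPM in the unprefixed libraries, with a median of 1654. MT-TD was at 220 CPM in 21-CTPS2, 219 in 22-LAPTM4B, 184 in 23-GOLGA8N and 80.9 in 20-ARSF, against 27.3 to 256 (E7) CPM, with a median of 48.7. MT-TF was at 4040, 3788, 2475 and 2412 CPM in 23-GOLGA8N, 22-LAPTM4B, 20-ARSF and 21-CTPS2, against 1564 to 3860 (E7) CPM. The groups overlapped for all 3, and 20-ARSF lay within the range of the unprefixed libraries even without E7. None of the 3 passed (edgeR adjusted p = 0.37, 0.36 and 0.681).

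**Figure D3:**
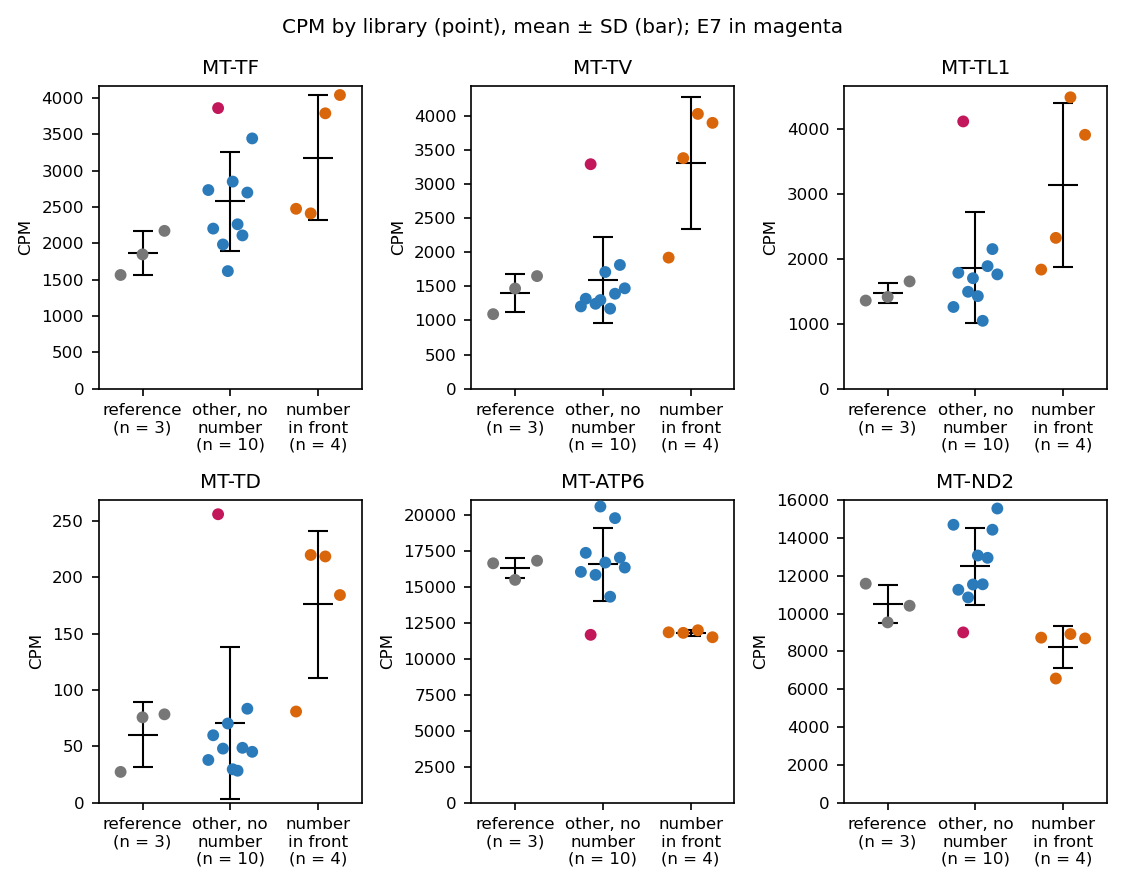
CPM (vertical axis, from 0) of MT-TF, MT-TV, MT-TL1, MT-TD, MT-ATP6 and MT-ND2 in the reference, other unprefixed and prefixed libraries; points are libraries, bars are mean ± SD, and E7 is in magenta. E7 lies within or next to the prefixed range in each panel, and 20-ARSF is the lowest prefixed library for MT-TV, MT-TL1 and MT-TD.

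E7 carries no number but lay nearer to the prefixed libraries for these genes, above their range for MT-TD (256 against at most 220 CPM) and just above it for MT-ND2 (9004 against at most 8918 CPM), as the plot of MT-TF, MT-TV, MT-TL1, MT-TD, MT-ATP6 and MT-ND2 by library shows. It is 1 library, so its values have no replicate check. Without E7, edgeR called 4 members among 102 of 12040 genes, 0.847%. MT-TV was then at log2 1.26 ± 0.15 (edgeR adjusted p = 0.000176), MT-TD at 1.74 ± 0.27 (edgeR adjusted p = 0.00236), MT-TL1 at 1.02 ± 0.22 (edgeR adjusted p = 0.0401) and MT-ATP6 at -0.50 ± 0.09 (SE; edgeR adjusted p = 0.00119). Leaving out E7 was one of the planned one-library omissions, but its weight here was seen in the data.

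Prefix and named gene could be separated in 6 libraries, those of the GOLGA8N and LAPTM4B arms, with the gene as a term in the fit (2 prefixed against 4 unprefixed). Here 7 members were called, all tRNAs and all higher in the prefixed libraries, among 73 of 11829 genes, 0.617%. MT-TD was at log2 2.34 ± 0.26 (edgeR adjusted p = 0.000372), MT-TL1 at 1.61 ± 0.16 (edgeR adjusted p = 0.000372) and MT-TV at 1.57 ± 0.13 (SE; edgeR adjusted p = 2.59e-05). MT-TL2 (leucine), MT-TT (threonine), MT-TF and MT-TQ were at 1.38, 0.98, 0.89 and 0.76. MT-ATP6 kept its direction at -0.49 but was not called (edgeR adjusted p = 0.102). The libraries outside this fit include 20-ARSF, 21-CTPS2 and E7. In these, in that order, MT-TV was at 1922, 3383 and 3293 CPM and MT-TL1 at 1836, 2325 and 4121. MT-TD was at 80.9, 220 and 256 CPM. With all 17 libraries MT-TV, MT-TL1 and MT-TD did not pass (edgeR adjusted p = 0.0957, 0.37 and 0.36).

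Set against the rRNAs that they flank, MT-TF, MT-TV and MT-TL1 together gave 45.2 reads per 100 rRNA reads in 23-GOLGA8N, 43.6 in E7, 43.0 in 22-LAPTM4B, 36.9 in 21-CTPS2 and 27.4 in 20-ARSF. The other 12 libraries lay between 18.7 (GFP) and 28.9 (RFP). The ratio set E7, 21-CTPS2, 22-LAPTM4B and 23-GOLGA8N apart from the rest, 20-ARSF included. It partly restates the levels of these tRNAs given above and is no separate result. MT-TD, which flanks no rRNA, was highest in the same libraries. MT-RNR2 itself was at log2 0.24 ± 0.11 and MT-RNR1 at -0.09 ± 0.11 between prefixed and unprefixed libraries (SE; edgeR adjusted p = 0.509 and 0.904). Some markers of other cell types differed in value by prefix, while others overlapped. Summed T cell markers were at 41.4 to 93.4 CPM in the prefixed and 38.3 to 122.6 CPM in the unprefixed libraries. Summed B cell markers were at 2.54 to 5.62 and 0 to 9.47 CPM. Of 10 fibroblast markers, PDGFRB, POSTN and LUM were at 0 in each library, and the sum of the list did not overlap, at 21.1 to 38.1 CPM in the prefixed libraries and 40.0 to 64.3 CPM in the others. Only 2 of these 10 had enough reads to be tested and 0 were called. COL1A2, a collagen chain, was at log2 -0.76 ± 0.20 (SE; edgeR adjusted p = 0.105). Summed epithelial markers overlapped, at 1651 to 2022 CPM and 849 to 1810 CPM, and KRT19, a keratin, was called at 0.58 ± 0.13 (SE; edgeR adjusted p = 0.0383). Of 16 erythroid markers, 10 had lower and 6 higher values, with a median of -0.09, and the embryonic globin HBE1 was called higher at 0.83 ± 0.16 (SE; edgeR adjusted p = 0.0191). The part of these markers in the result was not tested.

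The unprefixed libraries outside the reference arm were compared with Neg, GFP and RFP to ask whether plasmids naming a gene, and E7, differed from the controls. Of 12 genes called among 12584, 0.0954%, 6 were mitochondrially encoded, and all 6 were higher outside the reference arm. All genes split into 11 called higher and 1 lower, or 0 and 1 with median-ratio factors or total count scaling. They were MT-ND1, MT-ND3 and MT-ND5 of complex I, MT-RNR1, MT-TA and MT-TN. At an unadjusted p under 0.05 there were 21 members, all higher, and 8.07% of all genes. Of the 37, 36 had higher values (35 with DESeq2 or limma-voom), with a median log2 of 0.38 against 0.01 over all genes.

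MT-RNR1 was at 3786 CPM in Neg, 3998 in GFP and 3694 in RFP, and at 4134 to 5460 CPM with a median of 4771 in the 10 other unprefixed libraries. The groups did not overlap, and the difference was log2 0.47 ± 0.09 (SE, 10 against 3 libraries; edgeR adjusted p = 0.0325). MT-TA was at 1749, 1669 and 1865 CPM in Neg, GFP and RFP and at 1906 to 2645 with a median of 2341 in the others, a difference of 0.55 ± 0.10 (SE; edgeR adjusted p = 0.0325). MT-TN was at 424, 376 and 483 CPM in Neg, GFP and RFP and at 520 to 746 with a median of 619, a difference of 0.68 ± 0.13 (SE; edgeR adjusted p = 0.0325). Both of these tRNAs are read from the minus strand, where they lie 1 base apart, and neither overlapped between the groups. The called members are named for their low p in this comparison, so gaps between their groups, here and below, add no support. The share of all genes with such a gap is not given here.

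MT-ND5, a large subunit of the proton-pumping arm, was at 1848, 2316 and 1964 CPM in Neg, GFP and RFP and at 2358 to 3452 with a median of 2799 in the others. MT-ND5 rose by log2 0.62 ± 0.12 (SE; edgeR adjusted p = 0.0426), and the groups did not overlap. MT-ND3 was at 12566, 14065 and 13205 CPM in Neg, GFP and RFP and at 13090 (E7) to 17758 with a median of 16321 in the others. With E7 inside the reference range, it rose by 0.42 ± 0.08 (SE; edgeR adjusted p = 0.0411).

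MT-ND1 was at 4451, 4361 and 4550 CPM in Neg, GFP and RFP and at 5051 to 6955 with a median of 5502 in the others. These groups did not overlap either, at log2 0.52 ± 0.10 (SE; edgeR adjusted p = 0.0325). A nuclear copy of its end takes many reads, however. MTND1P23 (chromosome 1, 629062 to 629433, plus strand) matched the last 352 bases of MT-ND1 at 99.1% identity and stood at 2985 ± 836 CPM (SD, n = 17). With nuclear copies added to the genes they copy, MT-ND1 was at 0.35 and not called (edgeR adjusted p = 0.437), and the other 5 remained called. This alternative was chosen after seeing the data.

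**Figure D4:**
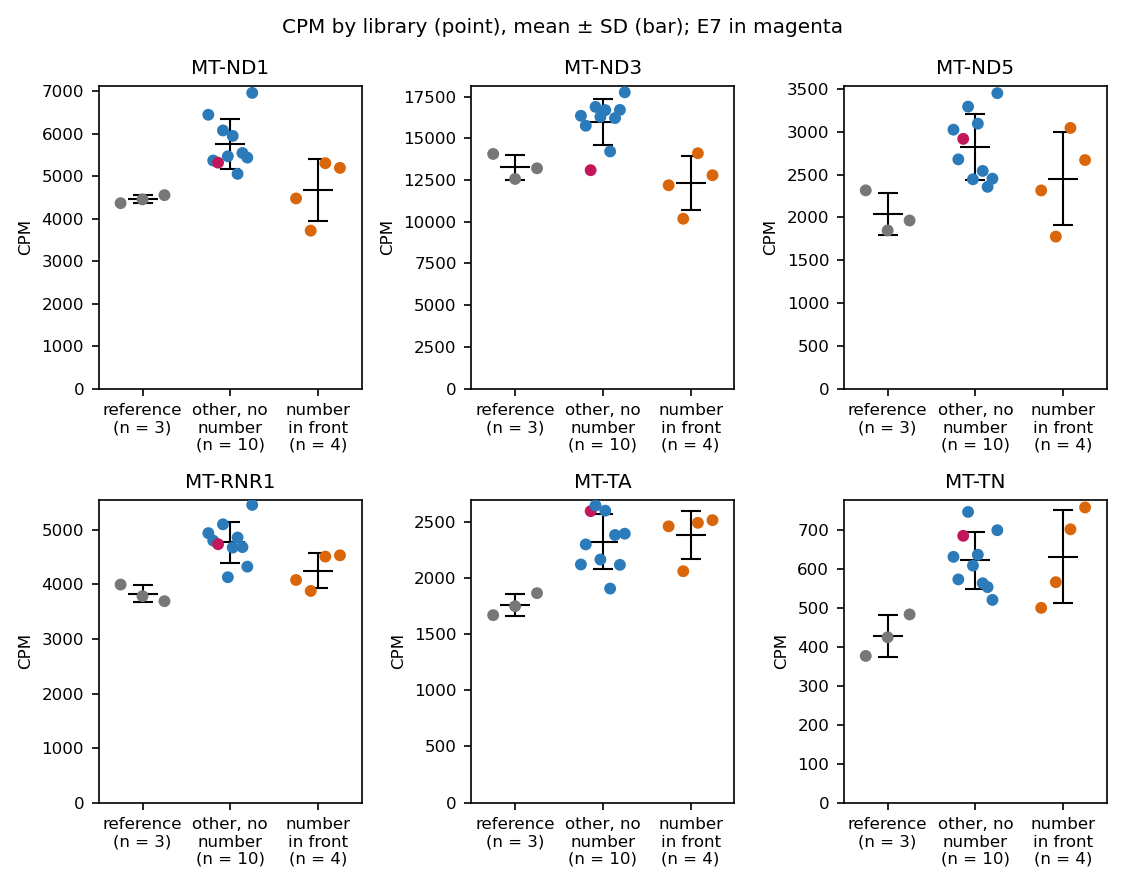
CPM (vertical axis, from 0) of the 6 called members in the reference, other unprefixed and prefixed libraries; points are libraries, bars are mean ± SD, and E7 is in magenta. The 3 reference libraries lie below the 10 other unprefixed libraries in each panel except MT-ND3, where E7 lies among them; prefixed libraries overlap the reference range for MT-ND1, MT-ND3, MT-ND5 and MT-RNR1.

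By complex, all 7 complex I mRNAs had higher values outside the reference arm, at log2 0.36 to 0.62, and 3 were called. The 3 complex IV mRNAs were at 0.09 (MT-CO3), 0.10 (MT-CO2) and 0.31 (MT-CO1), MT-CYB at 0.22 and MT-ATP6 at 0.17, and none of these 5 was called. With total count scaling MT-CO2 turned to -0.05 and MT-CO3 to -0.06, while the complex I mRNAs kept their sign in each scaling and tool. MT-ATP8, the small membrane subunit of ATP synthase, was the 1 member with a lower value, at -0.54 ± 0.47 (SE; edgeR adjusted p = 0.864), and limma-voom put it at 0.20. Its level was 2144 CPM in GFP, 397 in Neg and 430 in RFP, and without GFP its difference turned to 0.65 ± 0.37 (SE; edgeR adjusted p = 0.935). The largest difference was that of MT-TQ at 1.07 ± 0.21, which was not called (edgeR adjusted p = 0.105). MT-TQ was at 690, 595 and 715 CPM in Neg, GFP and RFP and at 843 (TTR) to 1588 (E7) in the 10 others.

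The 6 calls in this comparison depended on the libraries and on the scaling. No member was called by edgeR without Neg, RFP, GFP, ADORA2A, COL6A6 or GOLGA8N 1 (lowest member adjusted p = 0.0534 to 0.235). Without GFP the log2 differences were 0.49 for MT-ND1, 0.44 for MT-ND3, 0.70 for MT-ND5, 0.49 for MT-RNR1, 0.49 for MT-TA and 0.59 for MT-TN, all within 1 SE of the values above. No member was called either with median-ratio factors or with total count scaling. DESeq2 called 7 members, the 6 and MT-TQ, and limma-voom called 3 (MT-RNR1, MT-TA and MT-TN). Over all genes they called 63 of 25649, 0.246%, and 35 of 12584, 0.278%. Total count scaling put the median of all genes at log2 -0.13. The values of 32 members were then above 0 and those of 36 above that median. Of 16 erythroid markers, 13 had higher values outside the reference arm, with a median of 0.30 and 0 called. Their summed level was 8024 to 8649 CPM in the reference arm and 6396 to 12428 CPM in the others, and their part in the result was not tested.

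**Figure D5:**
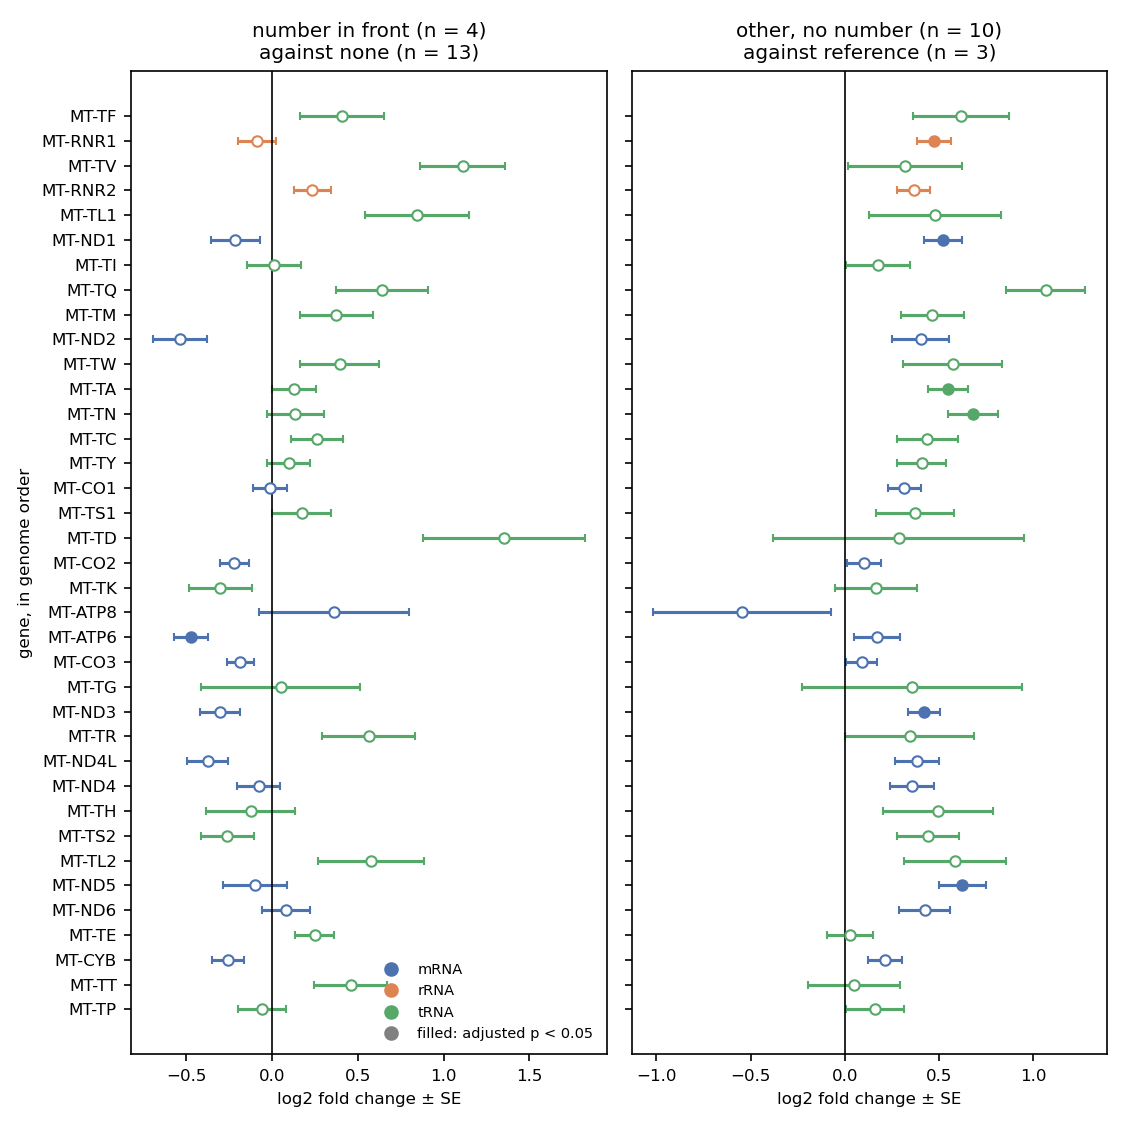
Log2 fold change ± SE (horizontal axes) of the 37 genes in genome order, prefixed against unprefixed libraries (left) and other unprefixed against reference libraries (right); filled points passed the edgeR threshold. On the left mRNAs (blue) lie mostly below 0 and tRNAs (green) mostly above; on the right 36 of 37 points lie above 0.

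The GOLGA8N and LAPTM4B arms were each compared with the reference arm, in 1 fit of 9 libraries, to find genes that changed with each set of plasmids. Both comparisons share Neg, GFP and RFP with each other and with the comparison of the other unprefixed libraries, so their values are given side by side. For the GOLGA8N arm edgeR called 0 of 37 members and 2 of 11916 genes, 0.0168%. For the LAPTM4B arm it called 0 members and 0 genes, 0%. At an unadjusted p under 0.05 there were 14 members in each, against 5.69% and 3.94% of all genes. DESeq2 called 1 and 0 members in the respective comparisons, and limma-voom 3 and 2. Over all genes DESeq2 called 0.0573% and 0.00409%, and limma-voom 0.0336% and 0.0168%.

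Against the reference arm, 35 members had higher values in the GOLGA8N arm and 31 in the LAPTM4B arm, with medians of log2 0.42 and 0.39, where all genes had 0.01 and 0.02. Total count scaling put the medians of all genes at -0.14 and -0.12; 30 and 28 members were then above 0, and 35 and 31 above those medians. By kind, 12 and 9 of 13 mRNAs had higher values (medians 0.245 and 0.248), or 8 and 8 with total count scaling. Both rRNAs did in each arm, and 21 and 20 of 22 tRNAs (medians 0.61 and 0.549). The mRNAs took 11.1 ± 0.598% of gene reads in the reference arm. They took 11.6 ± 1.54% in the GOLGA8N arm and 11.0 ± 0.788% in the LAPTM4B arm (SD, n = 3 each). Without GFP, MT-ATP8 turned from -0.39 to 0.81 and from -0.79 to 0.41 in the respective arms, uncalled. Erythroid markers moved alongside: 15 of 16 had higher values in the GOLGA8N arm, with a median of 0.41 and 6 at an unadjusted p under 0.05. In the LAPTM4B arm 14 of 16 did, with a median of 0.16 and 3 at that level. None was called, and their part in the result was not tested. MT-TN was at 757 CPM in 23-GOLGA8N, 746 in GOLGA8N 1 and 608 in GOLGA8N 2, and at 701 in 22-LAPTM4B, 636 in LAPTM4B 1 and 563 in LAPTM4B 2. All 6 lay above the 376 to 483 CPM of the reference arm. Its differences were 0.86 ± 0.16 and 0.70 ± 0.16 (SE, 3 against 3 libraries; edgeR adjusted p = 0.12 and 1.00 by the same fit). DESeq2 (adjusted p = 0.00161) and limma-voom (adjusted p = 0.0308) called MT-TN in the GOLGA8N arm.

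MT-ND5 was at 2671 CPM in 23-GOLGA8N, 3295 in GOLGA8N 1 and 2446 in GOLGA8N 2, and at 3046 in 22-LAPTM4B, 3096 in LAPTM4B 1 and 2544 in LAPTM4B 2, all above the reference arm. Its differences were log2 0.61 ± 0.14 and 0.65 ± 0.14 (SE; edgeR adjusted p = 0.361 for the GOLGA8N arm), and limma-voom called both (adjusted p = 0.0308 and 0.0249). MT-TA stood at 0.62 and 0.55 and MT-ND1 at 0.47 and 0.43. MT-RNR1 was at 0.41 ± 0.11 and 0.43 ± 0.11 and MT-RNR2 at 0.47 ± 0.14 and 0.44 ± 0.14 (SE), none of them called by edgeR.

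MT-TV had large but imprecise differences from the reference arm, and the prefixed library of each arm stood apart from the other 2. The GOLGA8N arm had 1245 and 1300 CPM beside 3900 in 23-GOLGA8N, and the LAPTM4B arm had 1711 and 1173 beside 4031 in 22-LAPTM4B. The differences were 0.75 ± 0.66 and 0.86 ± 0.66 (SE). With unprefixed libraries alone, edgeR called 1 member in the GOLGA8N arm, MT-TQ at log2 1.01 ± 0.17 (SE; edgeR adjusted p = 0.00927), among 7 of 12763 genes, 0.0548%.

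Set directly against each other, the GOLGA8N and LAPTM4B arms differed in 0 of 37 members by edgeR, DESeq2 and limma-voom, and in 1 of 11916 genes (0.00839%) by edgeR. At an unadjusted p under 0.05 there were 2 members, MT-TS1 and MT-CO3, against 2.04% of all genes. MT-TS1, read from the minus strand, was at 5352 CPM in 23-GOLGA8N, 4822 in GOLGA8N 1 and 5367 in GOLGA8N 2. It was at 4524 CPM in 22-LAPTM4B, 4058 in LAPTM4B 1 and 2446 in LAPTM4B 2. The difference of log2 0.50 ± 0.19 did not pass (SE; edgeR adjusted p = 1). MT-CO3, a complex IV subunit, was at 0.21 ± 0.10, MT-CYB at 0.18 ± 0.12 and MT-TC (cysteine) at -0.29 ± 0.19 (SE). The median over the 37 was 0.06, against -0.01 over all genes.

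Several members overlap or abut a partner, and the counting used a strand setting not given in the sources used here. MT-TS1, on the minus strand, and MT-CO1, on the plus strand, meet end to end at their 3′ ends, as do MT-ND6 and MT-ND5, so reads of such neighbours on opposite strands cannot be told apart with certainty. MT-TS1 had 61.5 (LAPTM4B 2) to 117 (20-ARSF) reads per 100 of MT-CO1, and MT-ND6 63.0 (LAPTM4B 2) to 102 (21-CTPS2) per 100 of MT-ND5.

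On the same strand, MT-ATP8 and MT-ATP6 share 46 bases of one mRNA, and MT-ND4L and MT-ND4 share 7. MT-ATP8 had 2144 CPM in GFP and 1847 in 21-CTPS2, against a median of 563 CPM over the 17 libraries. That was 12.9 and 15.7 reads per 100 of MT-ATP6 in those 2 libraries and 1.78 to 5.92 in the other 15. MT-ND4L had 8.48 to 15.0 reads per 100 of MT-ND4, without such a gap. Reads of the shared bases cannot be assigned to 1 of the genes with certainty.

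Nuclear copies of mitochondrial genes took 0.254% (E7) to 0.521% (GFP) of gene reads. MTND1P23 ran from 1832 CPM in E7, 1849 in 23-GOLGA8N, 1858 in 22-LAPTM4B and 1863 in 21-CTPS2 to 4238 in GFP. The lowest 4 libraries for this copy were those in which the ratio of MT-TF, MT-TV and MT-TL1 to rRNA was highest. It was not called between prefixed and unprefixed libraries, at log2 -0.68 ± 0.18 (SE; edgeR adjusted p = 0.17), nor against the reference arm, at 0.08 ± 0.23 (SE; edgeR adjusted p = 0.975). MTATP6P1 (chromosome 1, 633696 to 634376) was 98.5% identical to MT-ATP6 over 681 bases and stood at 599 ± 112 CPM (SD, n = 17). MTND4P12 was at 85.1 ± 23.4 CPM.

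Nuclear genes that make, mature and translate mitochondrial RNA were counted beside the 37. No member of 5 lists passed edgeR in any of the 5 comparisons: mitochondrial transcription and genome upkeep, RNA processing and decay, aminoacyl-tRNA synthetases, translation factors and mitochondrial ribosomal proteins. Of 80 tested ribosomal proteins, 57 had higher values outside the reference arm, with a median log2 of 0.10 against 0.01 over all genes, and 7 had an unadjusted p under 0.05, where 8.07% of all genes did. In the prefixed libraries 25 of 80 had higher values, with a median of -0.10 against -0.02, and 11 had an unadjusted p under 0.05, where 9.36% of all genes did.

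Of 47 RNA processing and decay genes, 27 had higher values outside the reference arm, with a median of 0.08, and 16 in the prefixed libraries, with a median of -0.11. Outside the reference arm the lowest p-values were those of TRMT5 at -1.47 ± 0.49, METTL15 at 1.79 ± 0.61 and SLIRP at 0.30 ± 0.11 (SE; edgeR adjusted p = 0.376, 0.395 and 0.437). SLIRP binds and protects mitochondrial mRNAs. In the prefixed libraries they were those of METTL17 at -0.61 ± 0.21, FASTKD2 at -0.84 ± 0.34 and CDK5RAP1 at 0.68 ± 0.30 (SE; edgeR adjusted p = 0.277, 0.417 and 0.474). FASTKD2 is an RNA-binding protein of the mitochondrial granules. None of these differences passed the edgeR threshold after adjustment over all genes tested.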

How the data were processed

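Each library has a deposited table of 228297 transcripts. Per the file headers, the authors' quantifier (Salmon's columns) gave estimated counts, which can be fractional, and TPM. STAR 0.7.2, Salmon 0.7.2, featureCounts, UMI-tools, GRCh38 and hg38 are listed in the submitters' processing notes. The handling of molecular identifiers was not given in the sources used here.

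Genes were built by adding the estimated counts of their transcripts in GENCODE 29, which matched 205336. Reads of other transcripts (3.32% to 3.6%) stayed out. Sums were rounded and tested by R 4.3.3 and edgeR 4.0.16 (TMM scaling, filterByExpr, robust quasi-likelihood test), with Benjamini-Hochberg adjustment over all genes tested and a threshold of 0.05. All 37 members were tested in each comparison. Each SE is the log2 difference over the square root of F. Library totals of 549962 to 4090195 reads set the precision, and a floor of 3 reads covers counting error only. The deposited TPM served as an alternative for shares. Alternatives used DESeq2 1.42.0, limma 3.58.1, other scalings, filters and libraries. Nuclear copies were aligned with Biopython 1.88. The fit was tested on simulated data.

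The members and gene lists were chosen with earlier results of these data known. The text names each member called in a comparison, otherwise the 4 with the lowest p there, the 5 tRNAs with most reads, the 3 leading nuclear copies and up to 3 genes of a list. Other members it singles out were chosen after their values were seen. Shares have no test.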

Additional observations from a re-analysis of the deposited data

Results flagged for a closer look

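In groups of 4 to 10 libraries, 9 of 80 tests found 1 library far from the rest of its group, where chance gives about 1 in 20. The tests share libraries and genes and are not independent, so an excess over chance cannot be read from these rates. All flags fell in E7 and 21-CTPS2. Among the 10 unprefixed libraries outside the reference arm, E7 was the highest and stood apart for MT-TV (3293 CPM, next 1815), MT-TL1 (4121, next 2152), MT-TD (256, next 83.4), MT-TL2 (90.1, next 54.3) and MT-TT (168, next 89.6). E7 also stood apart in the share of gene reads in tRNAs, at 2.43% with the next at 1.85%. Among the 4 prefixed libraries, 21-CTPS2 was the lowest for MT-ND2 (6565 CPM, next 8685) and MT-TA (2060, next 2460) and the highest for MT-ATP8 (1847, next 574).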

How the results depend on the processing

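In the GOLGA8N arm against the reference arm, where edgeR called 0 members, DESeq2 called 1, limma-voom 3, no filter on low counts 8 and unprefixed labels alone 1. In the LAPTM4B arm limma-voom called 2 and no filter 5. Between prefixed and unprefixed libraries (1 called), DESeq2 called 4, limma-voom 0, no filter 5 and the 6 GOLGA8N and LAPTM4B libraries with the gene as a term 7. Outside against inside the reference arm (6 called), limma-voom called 3, no filter 13, 14 other libraries with the prefix as a term 3, and median-ratio factors, total count scaling, the stricter filter (10 CPM in 3 libraries) and transcripts without a gene kept each called 0. With libraries left out in turn, the counts ran from 0 to 3 for the GOLGA8N arm (2 without 22-LAPTM4B, 3 without LAPTM4B 2), from 0 to 4 for the prefix (0 without each prefixed library, 2 without GFP, 4 without E7) and from 0 to 8 against the reference arm; they stayed at 0 for the LAPTM4B arm and between the 2 arms. No called member reversed in the comparison that called it. Among the 6 scalings and tools, signs of uncalled members changed as follows: MT-ATP6, MT-ATP8, MT-CO2, MT-CO3, MT-ND2 and MT-TK in the GOLGA8N arm, MT-CYB, MT-TD, MT-TS1 and MT-TT in the LAPTM4B arm, MT-ND4 between the arms, MT-TI by prefix, and MT-ATP8, MT-CO2, MT-CO3, MT-TD, MT-TE and MT-TT outside the reference arm. The cause of lost and gained calls was not tested.

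Deposited TPM, which divides by length, gave shares of 9.51%, 9.13% and 8.85% for mRNAs, 0.598%, 0.673% and 0.679% for rRNAs and 19.4%, 24.9% and 23.4% for tRNAs in the reference, GOLGA8N and LAPTM4B arms. The other alternatives for these shares moved them by less than 1 SD.

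The labels do not say whether GOLGA8N and LAPTM4B libraries with the same number, 1 or 2, belong together. The 2 arms' differences between libraries 1 and 2 correlated at 0.129 across 8085 genes, which are not replicates. With 1 such difference in each arm, whether the same number marks a shared batch was not tested. With the replicate block on these 4 libraries edgeR called 0 members, and 0 without it. Without GFP, the library of lowest depth, 0 members were called in the comparisons with the reference arm.

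Counts over all genes moved too. Between prefixed and unprefixed libraries, edgeR called 35, DESeq2 124, limma-voom 52, no filter 559 and transcripts without a gene kept 23. In that order these were 0.284%, 0.464%, 0.422%, 2.09% and 0.173% of the genes tested. Outside against inside the reference arm the counts were 12, 63, 35, 120 and 0, with 1 for median-ratio factors and for total count scaling, 0 for the stricter filter, 7 with the prefix as a term and 8 with nuclear copies added. The shares were 0.0954%, 0.246%, 0.278%, 0.465% and 0%, then 0.00795% for both scalings, 0%, 0.0533% and 0.064%. For the GOLGA8N arm they were 2 by edgeR (0.0168%), 14 by DESeq2 (0.0573%), 4 by limma-voom (0.0336%), 42 with no filter (0.172%) and 7 with unprefixed labels alone (0.0548%). For the LAPTM4B arm they were 0, 1, 2, 24 and 2 in the same order, and between the arms 1, 2, 0, 9 and 2. The shares were 0%, 0.00409%, 0.0168%, 0.0982% and 0.0157%, and 0.00839%, 0.0082%, 0%, 0.0368% and 0.0157%. With 1 library left out, edgeR called 0.047% (without 22-LAPTM4B) and 0.039% (without LAPTM4B 2) for the GOLGA8N arm. It called 0.375% without GFP for the prefix, and at most 0.112% (without GOLGA8N 2) against the reference arm.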
